A study of Mus with 3 samples.

Results

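Klrg1-positive regulatory T cells of MC38 tumors are described here, in tumors grown in mice whose T cells had normal, reduced or raised retinoic acid receptor α (RARα). MC38 is a mouse colon carcinoma line. Tumors were taken on day 16. Cells of the WT tumor were tagged with hashtag antibody C0301, those of the RARα-KO tumor with C0302 and those of the RARα-TG tumor with C0303. All were then pooled into a single 10x 5′ run that read gene expression, T cell receptor (TCR) sequences and the hashtags. Each genotype supplied 30000 sorted CD45.2+ CD3+ T cells and 10000 unsorted tumor cells. RARα-KO mice carried dLck-Cre and Rara L/L alleles, so that Cre driven by the distal Lck promoter removed exon 8 of Rara in T cells, which still make a transcript without that exon. RARα-TG mice carried the CD2-Rara transgene, driven in T cells by the CD2 promoter. C57BL/6 and dLck-Cre mice are both named as controls, and which of these gave the WT tumor is not given, nor is the number of mice behind each hashtag. Each genotype is therefore 1 sample, called its tumor below. The labels also describe naive CD8 T cells of spleen activated in culture, which does not match this tumor protocol.

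Members were chosen by their measured counts: a barcode had to hold 500 or more gene UMIs (unique molecular identifiers, each standing for 1 captured RNA molecule) and a TCR clonotype, with 1 or more UMIs of both Foxp3 and Klrg1 and none of Cd8a or Cd8b1. This gave 403 cells of 629 Foxp3+ T cells, of 3702 cells with a clonotype and of 5600 barcodes at that depth. By hashtag (10 or more UMIs of the top tag and at least 3 times the next), 109 came from WT, 77 from RARα-KO and 191 from RARα-TG, and 26 had no single tag and entered no comparison. The Foxp3+ cells with no Klrg1 UMI, called Klrg1- below, numbered 77, 50 and 88 in the same order, with 11 untagged.

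Foxp3 is the transcription factor that defines regulatory T cells, which restrain other immune cells. Klrg1 is a cadherin-binding receptor best known from late effector CD8 T cells and NK cells, and among regulatory T cells it marks activated cells of tissues. Such cells often carry the αE integrin Itgae (CD103), which binds E-cadherin on epithelium, the growth factor Areg, which acts in tissue repair, and Lrrc32 (GARP), which holds latent TGF-β at the cell surface. RARα is a nuclear receptor for retinoic acid, which in T cells shapes regulatory T cell formation and homing.

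The label was first checked against markers. Besides the gate genes, Il2ra, Ctla4, Ikzf2 and Tnfrsf9 were abundant in every tumor. In Klrg1+ cells of WT, RARα-KO and RARα-TG, Ctla4 stood at 1559, 1267 and 2091 CPM (the group's summed UMIs of a gene scaled by its total gene UMIs), Il2ra at 1060, 949 and 1253, and Ikzf2 at 842, 790 and 507. A Cd4 UMI was seen in 59.1% of the 403 cells. Of 6 γδ T cell markers, no more than 1 UMI was counted in any tumor's Klrg1+ cells, and the NK genes Ncr1, Klrb1c and Klra8 were at 0 there. The list of 7 NK markers also holds Fcer1g and Tyrobp, which myeloid cells share, and summed to 3.46, 304 and 159 CPM. The given markers were present in only some members: Itgae in 50.6%, Areg in 49.1% and Lrrc32 in 36.2%, against 51.8%, 38.1% and 46.9% of the 226 Klrg1- cells, whose median depth was lower (3431 against 4329 UMIs). A Klrg1 UMI was found in 1.75% of 343 myeloid barcodes and in 1 of 555 MC38 or stromal barcodes, both without a clonotype, at median depths of 6323 and 25740 UMIs, in 7.04% of 2046 CD8 T cells and in 15.2% of 362 Cd4+ cells with no Foxp3 UMI. On the RefSeq annotation of GRCm38.p6, Klrg1 lies on chromosome 6 from 122270596 to 122282833, Foxp3 on chromosome X from 7579676 to 7595243, Itgae on chromosome 11 from 73090505 to 73147449, Areg on chromosome 5 from 91139599 to 91148432 and Lrrc32 on chromosome 7 from 98489305 to 98501831. Counts were per gene, so exons and isoforms were not separated.

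Hashtags were checked against clonotypes. Of 1811 cells whose clonotype had at least 5 cells, 11 (0.607%) had a tag other than that of its majority, and 2 of 435 clonotypes with Foxp3+ cells were found under more than 1 tag. Median depth was 4371, 4562 and 4017 UMIs in Klrg1+ cells of WT, RARα-KO and RARα-TG, and 3494, 3748 and 3225 in Klrg1- cells, so the Klrg1+ cells were deeper in every tumor.

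A few barcodes carried RNA of other cells. The 12 myeloid markers (such as Lyz2, C1qa and Csf1r) summed to 29.4, 293 and 956 CPM in Klrg1+ cells of WT, RARα-KO and RARα-TG, and to 25.4, 30.6 and 15.3 CPM in Klrg1- cells. In the Klrg1+ sums 7, 4 and 0 of these 12 genes were at 0. The 10 MC38 or stromal markers summed to 403, 59.9 and 217 CPM against 28.5, 26.8 and 42.7 CPM, with Krt8 at 0 throughout. Of the 592 tagged Foxp3+ cells, 7 had 5 or more UMIs of either marker list (Gsn left out) and are called mixed cells below: 6 Klrg1+ cells (1 WT, 1 RARα-KO and 4 RARα-TG) of 12135 UMIs or more, and 1 WT Klrg1- cell. They held 900 of the 926 myeloid UMIs of RARα-TG Klrg1+ cells, 113 of 127 of RARα-KO and 0 of 17 of WT, and 190 of the 197 stromal UMIs of WT. Of the 26 untagged members, 6 were mixed by the same rule. Mixed cells were defined after these values were seen. The counts of genes called or past 2-fold and the Klrg1+ shares of Foxp3+ cells are given with and without them. Clonotype shares and shares of all cells with a clonotype include them.

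Klrg1 itself was sparse. Members held 1 to 21 Klrg1 UMIs with a median of 3, 89 of the 403 sat at the edge of the gate with 1 UMI, and 182 had 4 or more. For Foxp3 the median was 2 UMIs, and 113 members had 1. In WT, 32.1% of members had 4 or more Klrg1 UMIs, against 48.1% for RARα-KO and 53.4% for RARα-TG. These values come from the genes that chose the cells and are a description.

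Levels varied with the number of Klrg1 UMIs (tagged members with 1, with 2 to 3 and with 4 or more, again a description). Over the 3 tumors together, Foxp3 stood at 677, 633 and 494 CPM in these classes, lowest in the last class of each tumor. Mki67, a proliferation antigen, stood at 28.6, 34.5 and 140 CPM, highest in the last class of each tumor. Itgae stood at 317, 338 and 190 CPM, lowest in the last class of each. Ctla4 had no common order, at 1556, 1469 and 1668 CPM in WT, 1305, 1206 and 1277 CPM in RARα-KO and 1546, 1930 and 2309 CPM in RARα-TG. Areg had none either: it stood at 1291, 1616 and 606 CPM in WT, at 581, 227 and 431 CPM in RARα-KO and at 1019, 1173 and 1740 CPM in RARα-TG. Median depth differed over the classes too, at 3683, 3985 and 4525 UMIs.

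Most tumor regulatory T cells carried Klrg1 in all 3 genotypes. In WT, 58.6% of the Foxp3+ cells were Klrg1+ (109 of 186, exact 95% interval 51.2% to 65.8%). The RARα-KO share was 60.6% (77 of 127, interval 51.6% to 69.2%). The RARα-TG share was 68.5% (191 of 279, interval 62.65% to 73.9%). These Clopper-Pearson intervals, like all intervals below, cover counting error only. With 1 tumor a genotype no test between genotypes was possible, and the 3 intervals overlapped. Without mixed cells the shares were 58.7%, 60.3% and 68.0%.

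The share depended on how deeply a cell was read. In WT it was 37.5% among cells with under 2000 UMIs and 75.0% among those with 6000 or more. The same classes gave 40.0% (of 5 cells) and 71.0% for RARα-KO, and 52.9% and 80.0% for RARα-TG. Within each depth class RARα-TG had the highest point estimate, with overlapping intervals. With every cell thinned to 1000 UMIs the shares were 29.3%, 32.5% and 40.5%, so the gate a cell fell into depended on its depth. Klrg1- therefore means no Klrg1 UMI and not absence of the transcript.

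**Figure D1:**
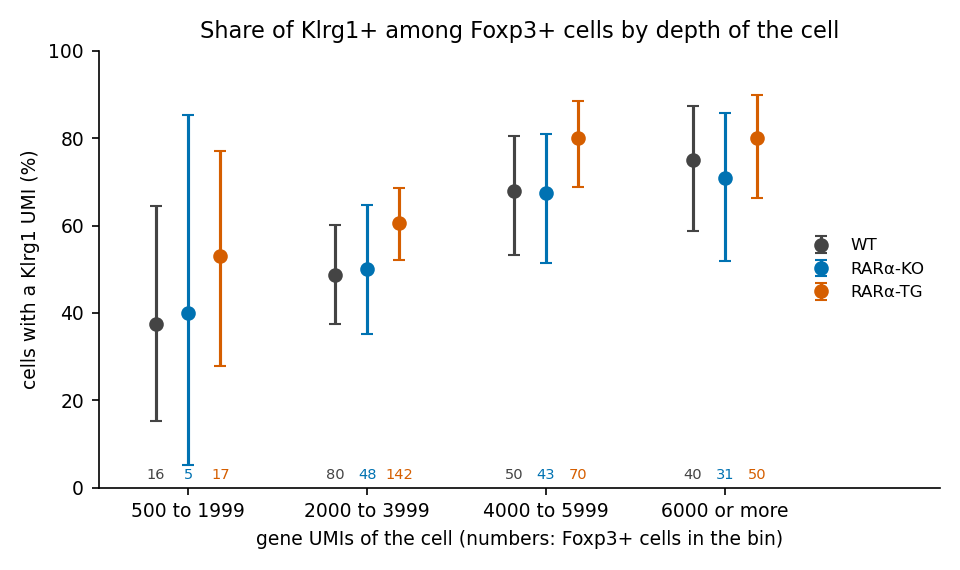
Share of Foxp3+ cells with a Klrg1 UMI (percent, y axis) in 4 classes of gene UMIs per cell (x axis) for each genotype. Points are shares, bars are exact 95% intervals for counting error, and the small numbers are the Foxp3+ cells in each class. The share is higher in deeper cells, and RARα-TG has the highest point in each class with overlapping bars.

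As a share of all cells with a clonotype and 1 tag, Klrg1+ regulatory T cells made up 8.45% of the WT tumor's 1290, 5.04% of the RARα-KO tumor's 1529 and 28.25% of the RARα-TG tumor's 676. The CD8 T cells in the same denominators numbered 792, 1039 and 101, and the sort fixed the number of T cells loaded, so fewer CD8 T cells and more regulatory T cells cannot be told apart in this share. Of Foxp3+ cells and Cd4+ cells without Foxp3 alone, Klrg1+ regulatory T cells made up 39.8%, 27.1% and 50.1% for WT, RARα-KO and RARα-TG.

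TCR sequences show that Klrg1+ regulatory T cells were made of many clones, a few of them large. The complementarity-determining region 3 (CDR3) of the β and α chains is the part of the receptor that varies most between clones. A clonotype is the set of cells that share their CDR3 sequences. The 109 WT members fell into 84 clonotypes, the 77 RARα-KO members into 56 and the 191 RARα-TG members into 136. The β chain CDR3 sequences of the largest Klrg1+ clonotypes of each tumor follow, as reads of cDNA 5′ to 3′ in lower case, because these clones hold the expanded members and tie them to other cells of the same origin.

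RARα-TG clonotype 24, β: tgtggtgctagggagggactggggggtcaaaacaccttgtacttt
RARα-TG clonotype 29, β: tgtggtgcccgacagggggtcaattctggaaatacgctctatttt
RARα-TG clonotype 27, β: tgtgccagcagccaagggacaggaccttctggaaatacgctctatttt
RARα-KO clonotype 115, β: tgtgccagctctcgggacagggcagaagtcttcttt
RARα-KO clonotype 81, β: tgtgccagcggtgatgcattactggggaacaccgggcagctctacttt
WT clonotype 76, β: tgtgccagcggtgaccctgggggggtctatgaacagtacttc
WT clonotype 54, β: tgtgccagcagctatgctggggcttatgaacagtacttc

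The largest, RARα-TG clonotype 24, had 13 Klrg1+ cells, 2 Klrg1- cells and 3 Cd4+ cells with no Foxp3 UMI among 19 cells, and its Klrg1+ members held 4 to 17 Klrg1 UMIs. Clonotype 29 of the same tumor had 9 Klrg1+ cells, no Klrg1- cell, 2 Cd4+ cells with no Foxp3 UMI and 7 other cells among 18. Both used TRBV20 and TRAV6N-7, joined to different J segments (TRBJ2-4 with TRAJ34, and TRBJ1-3 with TRAJ32), and their α chain CDR3 sequences are shown for that reason.

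RARα-TG clonotype 24, α: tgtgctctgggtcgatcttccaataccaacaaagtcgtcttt
RARα-TG clonotype 29, α: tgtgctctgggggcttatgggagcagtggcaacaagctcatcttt

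RARα-TG clonotype 27 (TRBV5, TRBJ1-3) had 9 Klrg1+ cells, 1 Klrg1- cell and 5 Cd4+ cells with no Foxp3 UMI among 18. In RARα-KO, all 5 cells of clonotype 115 were Klrg1+, and clonotype 81 had 4 Klrg1+ and 2 Klrg1- cells. In WT, clonotype 76 had 5 Klrg1+ cells and 1 Klrg1- cell among 8, while clonotype 54 was split into 4 and 4 among 10. Cells of 1 clone therefore lay on both sides of the gate in 5 of these 7 clonotypes.

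**Figure D2:**
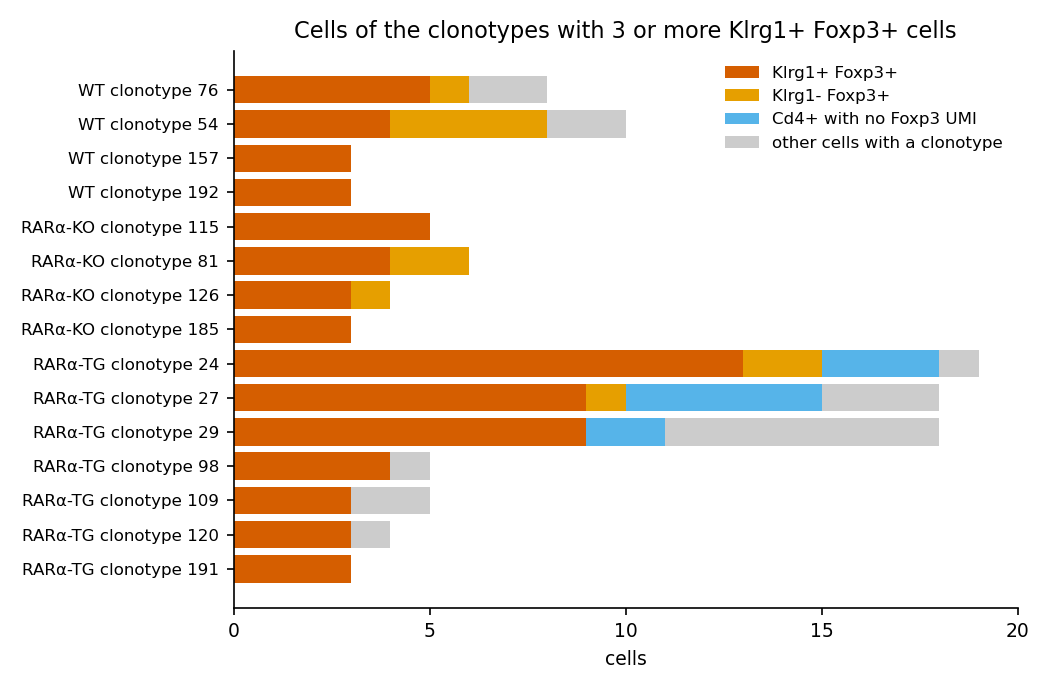
Number of cells (x axis) of each clonotype with 3 or more Klrg1+ Foxp3+ cells, by genotype, split by gate. The 3 largest clonotypes all come from RARα-TG, with 19, 18 and 18 cells.

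Klrg1+ cells sat in expanded clonotypes at a higher share than Klrg1- cells in each tumor. In WT, 51.4% of Klrg1+ cells (interval 41.6% to 61.1%) and 29.9% of Klrg1- cells (19.97% to 41.4%) belonged to clonotypes of 2 or more cells in their tumor. The shares were 55.8% (44.1% to 67.2%) and 48.0% (33.7% to 62.6%) for RARα-KO. They were 49.2% (41.9% to 56.5%) and 26.1% (17.3% to 36.6%) for RARα-TG. The intervals of the gates did not overlap in RARα-TG, barely missed each other in WT and overlapped widely in RARα-KO. Without likely doublets the WT intervals overlapped (45.9% to 73.0% against 21.5% to 48.3%), as they did with clonotypes set by the β chain CDR3 (35.6% to 56.3% against 16.8% to 39.1%). Among cells with a Cd4 UMI the RARα-KO order turned, with 27 of 54 Klrg1+ and 17 of 30 Klrg1- cells in such clonotypes (56.7% of the latter). With 3 tumors the exact paired permutation test cannot give a p below 0.25, so no p is given, and cells of 1 clone are not independent, so the true error is wider than these intervals.

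Some clones lay in both gates. In WT, 14 clonotypes held both Klrg1+ and Klrg1- cells, which is 16.7% of the 84 with Klrg1+ and 19.7% of the 71 with Klrg1- cells. The RARα-KO tumor had 11 such clonotypes (19.6% of 56 and 26.8% of 41), and the RARα-TG tumor 11 (8.09% of 136 and 12.9% of 85). Of the clonotypes with 2 or more Foxp3+ cells, 13 of 29, 7 of 20 and 20 of 33 held Klrg1+ cells only, and 2 in each tumor held Klrg1- cells only. Klrg1+ cells were 58.6%, 60.6% and 68.5% of all Foxp3+ cells. More clonotypes with Klrg1+ cells only would therefore arise without any link of clone and gate, and such a link was not tested. Overlap with Cd4+ cells without Foxp3 was seen for 1, 3 and 6 Klrg1+ clonotypes, and with CD8 T cells for 0, 2 and 0. These clonotypes held 1, 5 and 36 Klrg1+ cells for the Cd4+ overlap. With other cells that had a clonotype but lay in none of these gates, 10, 6 and 16 Klrg1+ clonotypes were shared.

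Compared with Klrg1- regulatory T cells of the same tumor, Klrg1+ cells had less RNA of the lymph node homing receptor Ccr7, the interferon-stimulated gene Isg15 and the cytokine signaling inhibitor Socs3, and more of the chemokine receptor Cxcr6 and the galectin Lgals1. None of 17 regulatory T cell identity genes was called. UMIs were summed per tumor and gate, and the 6 sums were compared with edgeR's quasi-likelihood test with the tumor as a block and Benjamini-Hochberg adjustment over all genes tested. Of 5519 genes, 28 rose (0.507%) and 12 fell (0.217%) in Klrg1+ cells. Without the mixed cells 9 rose (0.164%) and 17 fell (0.310%) of 5477. Of the genes that fell, 11 were called both ways (91.7% of the 12 and 64.7% of the 17), whereas of those that rose only 4 were (14.3% of the 28 and 44.4% of the 9). In 21 of the 28 genes that rose, at least 50% of the Klrg1+ UMIs came from the 6 mixed cells, which was the case for 0 of those that fell. DESeq2 with the same block called 0 genes (73 at an unadjusted p under 0.05, and 55 without the mixed cells). The calls rest on 3 tumors of different genotype: 14 rose and 8 fell without the WT tumor, 99 and 97 without RARα-KO, and 8 and 0 without RARα-TG (0 fell by edgeR, with 169 genes at an unadjusted p under 0.05 in both directions).

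The drop of Ccr7, which guides T cells to lymph nodes, was among the steadiest. In Klrg1+ against Klrg1- cells it stood at 373 against 640 CPM in WT, 134 against 195 in RARα-KO and 83.6 against 321 in RARα-TG. It was lower in all 3 tumors, with a log2 fold change of -1.08 ± 0.20 (SE, edgeR adjusted p = 0.0017), or -0.98 ± 0.19 without the mixed cells (adjusted p = 0.000891). It was called under 14 of 20 alternative settings and kept its sign in all 20. The Klrg1+ UMIs came from 34 WT, 8 RARα-KO and 14 RARα-TG cells, so most Klrg1+ cells had none.

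Isg15 and Socs3 fell likewise. Isg15, a ubiquitin-like protein induced by interferons, stood at 282 against 548 CPM in WT, 283 against 424 in RARα-KO and 158 against 400 in RARα-TG. Its log2 fold change was -0.96 ± 0.17 (edgeR adjusted p = 0.000948). In RARα-KO 1 Klrg1- cell held 51 of 111 UMIs. Without the mixed cells and the cell with the most Isg15 in each tumor and gate, the levels were 272 against 419, 255 against 238 and 154 against 266 CPM, so the RARα-KO tumor no longer had the lower level. Socs3, which blocks signaling of IL-6 family receptors, stood at 70.9 against 101, 76.0 against 172 and 59.9 against 174 CPM (-1.11 ± 0.23, adjusted p = 0.00534). Il6st (gp130), the signaling chain of those receptors, fell by 0.94 ± 0.23 on the log2 scale (adjusted p = 0.0415), at 83.0 against 171 CPM in WT and 64.0 against 177 in RARα-TG, but 83.0 against 84.1 in RARα-KO, where it was slightly higher without the mixed cells (85.3 against 84.1).

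Cd69 and Trat1 fell as well. Cd69, an early activation antigen that retains cells in tissue, stood at 111 against 136 CPM in WT, 83.0 against 222 in RARα-KO and 204 against 400 in RARα-TG (log2 fold change -0.88 ± 0.21, edgeR adjusted p = 0.0242). Trat1, an adaptor bound to the TCR, stood at 51.9 against 105, 13.8 against 26.8 and 24.8 against 97.7 CPM (-1.39 ± 0.31, adjusted p = 0.0155). Tiam1 (an activator of Rac), Ramp3 (a partner of calcitonin-family receptors), Trp53inp1 (a p53-induced protein) and Gramd3 fell by 1.07, 1.34, 0.96 and 0.87 on the log2 scale, each lower in all 3 tumors. Of the given markers, Lrrc32 fell by 0.81 ± 0.20 (adjusted p = 0.0389), lower in all 3 tumors, but missed the threshold without the mixed cells (-0.75 ± 0.20, adjusted p = 0.0609).

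The same markers Itgae and Areg gave no call. Itgae stood at 280 against 288 CPM in WT, 96.8 against 111 in RARα-KO and 313 against 406 in RARα-TG (log2 fold change -0.20 ± 0.18, edgeR adjusted p = 0.899). Areg stood at 1174 against 843, 419 against 822 and 1488 against 1075 CPM, higher in 2 tumors and lower in RARα-KO (0.06 ± 0.17, adjusted p = 0.982). Of the 215 Areg UMIs of RARα-KO Klrg1- cells, 105 lay in 1 cell. Without the mixed cells and the cell with the most Areg in each tumor and gate, the RARα-KO levels were 338 against 431 CPM. With every gated cell thinned to 1000 UMIs, Areg rose by 0.62 (adjusted p = 0.0161).

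**Figure D3:**
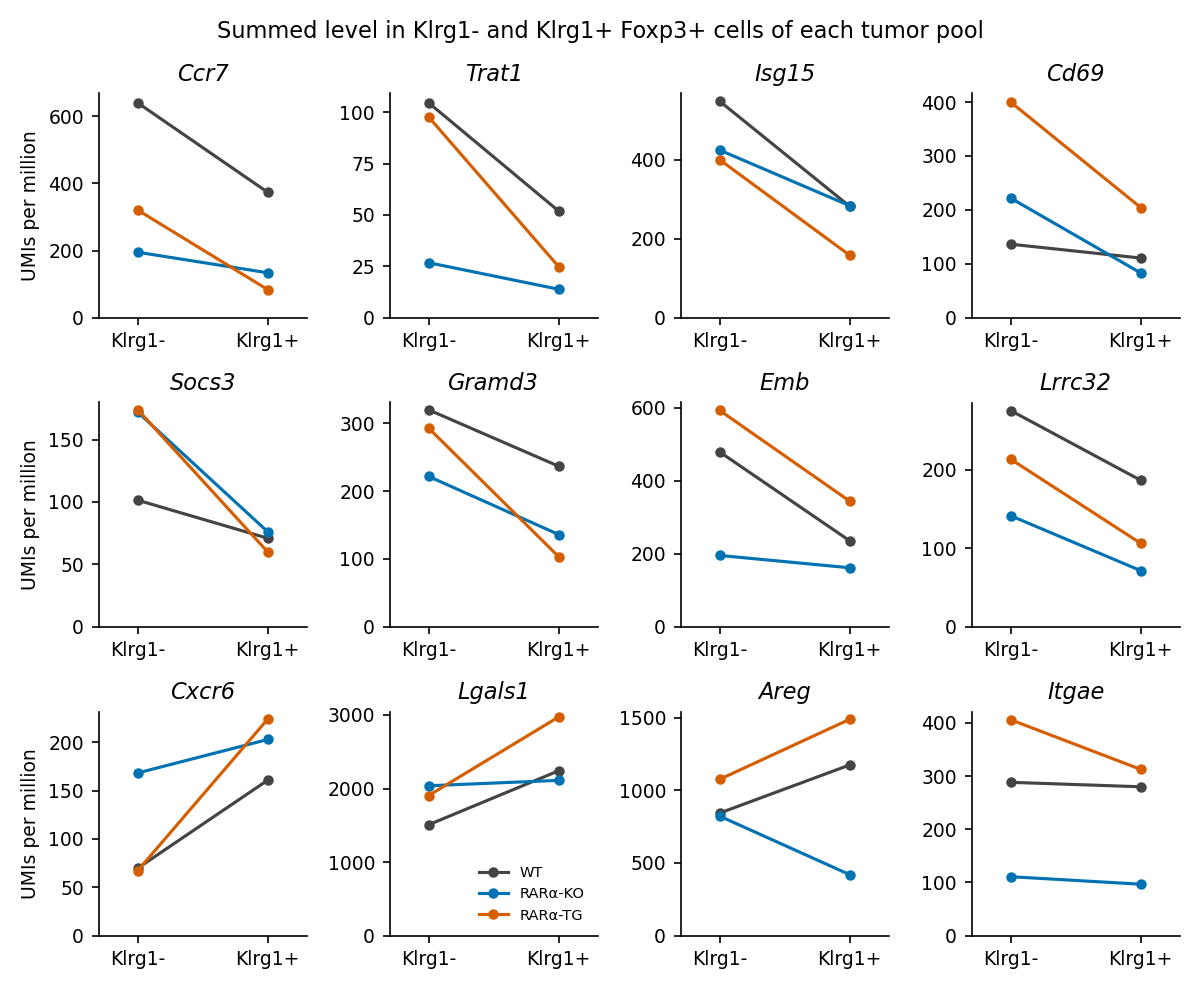
Summed level (CPM, y axes from 0) of 12 genes in Klrg1- and Klrg1+ Foxp3+ cells, 1 line for each tumor. Ccr7, Trat1, Isg15, Cd69, Socs3, Gramd3, Emb and Lrrc32 are lower in Klrg1+ cells of all 3 tumors, Cxcr6 and Lgals1 are higher in all 3, and Areg and Itgae show no common large difference. Without the mixed cells and the top Isg15 cell of each tumor and gate, RARα-KO stood at 255 (Klrg1+) against 238 CPM (Klrg1-).

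Among the genes that rose, Cxcr6 and Lgals1 did not turn on the mixed cells. Cxcr6, a receptor for CXCL16 that holds T cells in tumors and tissues, stood at 161 against 69.7 CPM in WT, 203 against 168 in RARα-KO and 224 against 67.2 in RARα-TG (log2 fold change 1.04 ± 0.24, edgeR adjusted p = 0.0171, and 1.10 ± 0.22, adjusted p = 0.00235, without the mixed cells). It was called under 10 of 20 alternatives. A Cxcr6 UMI was present in 30 WT, 33 RARα-KO and 80 RARα-TG members outside the mixed cells. Lgals1, galectin-1, which dampens T cell responses, stood at 2242 against 1508, 2111 against 2038 and 2974 against 1905 CPM (0.43 ± 0.11, adjusted p = 0.0456).

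The other genes with large rises rested on few cells. Tgfbi, Ccnd1, Nupr1, Igfbp4, Tyrobp, Tm4sf1, Spp1, Cxcl2 and Anxa1, which with Ifitm1 were the 10 largest rises, had at least 50% of their Klrg1+ UMIs in the mixed cells. Without these cells all but Cxcl2 fell short of the filter on low counts, and Cxcl2 was not called (edgeR adjusted p = 0.103). Ifitm1 remained called (log2 fold change 2.80 ± 0.54, edgeR adjusted p = 0.000891), but 31 of its 32 WT UMIs lay in 1 cell and 32 of its 39 RARα-KO UMIs in another. Plac8 (1.82 ± 0.41, adjusted p = 0.0126) was found in 4 WT, 12 RARα-KO and 4 RARα-TG members. Without the mixed cells, the DNA synthesis enzyme Rrm2 (1.40 ± 0.36, adjusted p = 0.0376), the leukotriene receptor Ltb4r1 (0.90 ± 0.23, adjusted p = 0.0376) and Sv2c (0.68 ± 0.18, adjusted p = 0.0442) rose too, each higher in all 3 tumors. For Rrm2, 24 of 29 RARα-KO UMIs came from 1 cell, and without the top cell of each tumor and gate it was lower in RARα-KO (12.5 against 17.6 CPM).

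By gene group, no identity gene was called, while all lymphoid and resting genes lay below 0. The medians in this paragraph are log2 fold changes without the mixed cells and can be read against 0.01 over all 5477 genes, of which 0.164% rose and 0.310% fell. Of 17 regulatory T cell identity genes tested, 0 were called and the median was -0.01. Ctla4 had a fold change of -0.01 ± 0.10, Il2ra of 0.08 ± 0.11 and Ikzf2 of -0.07 ± 0.13. Of 9 lymphoid and resting genes, Ccr7 and Klf2 fell, all 9 lay below 0 and the median was -0.78. Klf2, a factor that keeps T cells in circulation, fell by 0.95 ± 0.21 (edgeR adjusted p = 0.0126), a call that was absent with the mixed cells included (-0.28 ± 0.20), and it was higher in RARα-KO (157 against 126 CPM).

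Of 12 antigen receptor response genes, Nr4a2 and Cd69 fell, 11 lay below 0 and the median was -0.42. Nr4a2 is an orphan nuclear receptor induced by TCR signals. Of 11 interferon response genes, Isg15 fell, 10 lay below 0 and the median was -0.29. Of 18 cytokine receptors, Il6st fell, 13 lay below 0 and the median was -0.15. Of 18 homing receptors and integrins, Cxcr6 rose and the median was -0.01.

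Of 20 cell cycle genes, Rrm2 and the histone gene Hist1h1b rose, 19 lay above 0 and the median was 0.71. Mki67 stood at 61.8 against 6.47 CPM in WT, 78.2 against 68.8 in RARα-KO and 118 against 85.5 in RARα-TG (0.76 ± 0.28, edgeR adjusted p = 0.356) and so did not pass the test. In Klrg1- cells 15 of 18 RARα-KO and 20 of 28 RARα-TG Mki67 UMIs lay in 1 cell each, and a Mki67 UMI was found in 11.8% of Klrg1+ against 8.0% of Klrg1- cells of RARα-KO and in 11.8% against 4.55% of RARα-TG. Hist1h1b was lower in RARα-KO (102 against 142 CPM), where 1 cell held 31 of 37 Klrg1- and another 38 of 43 Klrg1+ UMIs. Of 15 suppressive molecules, Lgals1 rose and the median was 0.25, while Gzmb (0.25 ± 0.09) and Il10 (-0.62 ± 0.26) were not called. Of 18 tissue effector genes, Penk, an opioid precursor made by activated regulatory T cells, rose (0.64 ± 0.17, adjusted p = 0.0442), though not in WT, where it stood at 480 against 602 CPM. Il1rl1 (the IL-33 receptor), Gata3 and Batf, factors of tissue regulatory T cells, had fold changes of -0.36, 0.04 and -0.21 with no call.

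**Figure D4:**
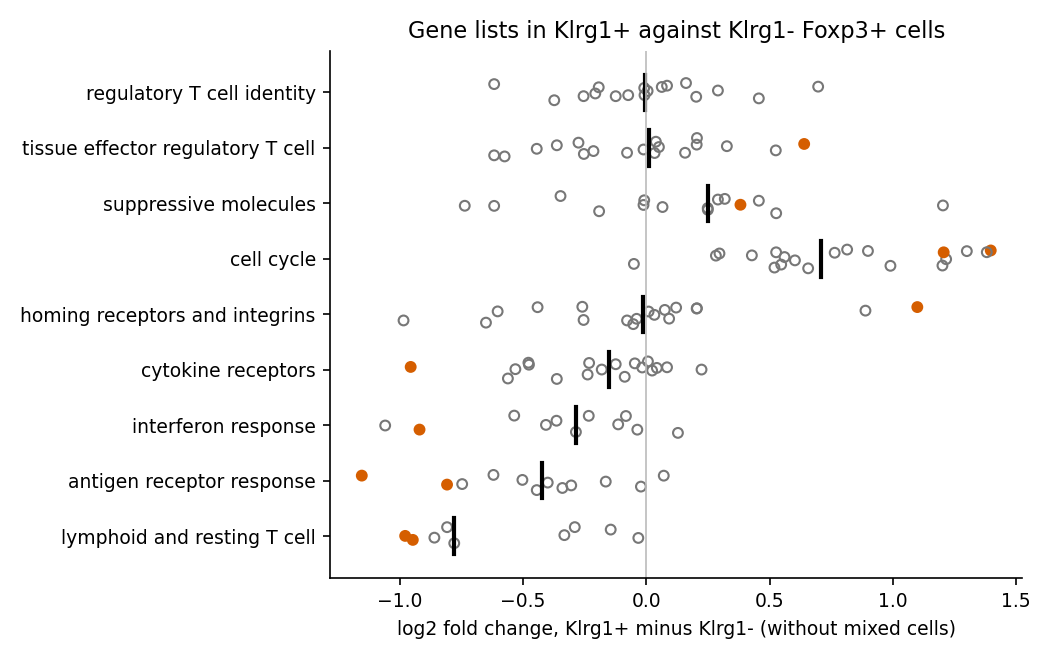
Log2 fold change of Klrg1+ minus Klrg1- Foxp3+ cells without mixed cells (x axis) for each tested gene of 9 lists (y axis). Filled points passed the edgeR test, open points did not, and black bars are list medians, which run from -0.78 for lymphoid and resting genes to 0.71 for cell cycle genes.

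In Klrg1+ regulatory T cells of the RARα-KO tumor, all 3 given markers were at a lower level than in WT, and the α4 integrin Itga4 was at a higher one. With 1 tumor a genotype these are ratios of summed UMIs with exact 95% counting intervals and no test, and any difference between the tumors themselves, such as the mice used, cannot be told apart from genotype. Of 5795 genes past the floors (0.1 UMIs per cell in either genotype and 20 UMIs in both together), 169 were 2-fold or more higher (2.92%) and 233 lower (4.02%) than WT. Without mixed cells, on which the values below rest unless stated, it was 160 (2.83%) and 187 (3.31%) of 5645. With them the 10 largest ratios also took in Fcer1g, Tyrobp, Cd14, H2-Aa and Il1b above 0 and Col3a1, Sparc, Bgn, Nupr1, Tm4sf1, Igfbp4 and Serpinh1 below 0, genes of myeloid or stromal cells.

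Rara itself is no check of the deletion here, since reads of the transcript that lacks exon 8 count as Rara. It had 42 UMIs in RARα-KO and 50 in WT Klrg1+ cells (log2 ratio 0.13). Itgae had 41 UMIs in 76 RARα-KO cells against 161 in 108 WT cells, a log2 ratio of -1.59. Its ratio was -1.38 (-2.04 to -0.76) in Klrg1- cells and -1.37 (-1.77 to -0.98) in CD8 T cells, so it was below 0 in each. Lrrc32 had 31 against 107 UMIs, a log2 ratio of -1.40, and -0.96 in Klrg1- cells.

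Areg was lower in RARα-KO members. It had 182 UMIs in 28 RARα-KO members against 677 in 57 WT members, a log2 ratio of -1.51. With the mixed cells its ratio was -1.49 (-1.73 to -1.25) in Klrg1+ cells and -0.04 (-0.30 to 0.23) in Klrg1- cells, intervals that do not overlap. Without the mixed cells and the cell with the most Areg in each tumor and gate, the ratios were -1.82 and -0.67, so the Klrg1- value near 0 rested on the cell named above. It was also lower in Cd4+ cells without Foxp3 (-1.80) and in CD8 T cells (-1.81). The difference between the gates was not tested, as there was 1 tumor of each genotype.

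Itga4, which pairs with β1 or β7 integrins and binds VCAM-1 and MAdCAM-1, had 48 UMIs in 22 RARα-KO members of 19 clonotypes against 6 in WT, a log2 ratio of 3.38 (2.16 to 4.90). It was also higher in RARα-KO Klrg1- cells (4.48) and CD8 T cells (3.13). Plac8 had 78 against 16 UMIs (2.67, 1.88 to 3.54). The chemokine receptor Cxcr3, which binds interferon-induced ligands, had 71 against 31 UMIs (1.58), and was found in 36 of 76 RARα-KO and 22 of 108 WT members. Tnfrsf9 (4-1BB), a costimulatory receptor of activated regulatory T cells, had 1577 against 936 UMIs (1.14). Oas1a, an interferon-induced sensor of double-stranded RNA, had 28 against 10 (1.87), and the IL-35 subunit Ebi3 had a ratio of 0.90.

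Lower in RARα-KO members were Irf4, a factor of effector regulatory T cells (11 against 49 UMIs, log2 ratio -1.77), the lipid enzyme Dgat2 (23 against 70, -1.22) and Ccr7 (58 against 216, -1.51). Irf4 was not lower in both gates. Without the mixed cells and the cell with the most Irf4 in each tumor and gate, its ratio was -1.84 in Klrg1+ cells. In Klrg1- cells it was 1.15, on few UMIs (11 in RARα-KO against 6 in WT). The largest ratios below 0 by the naming rule, besides Rpl29, were those of Cxcl2, Tmtc2, Usp14, Gas2l3, Errfi1, Frmd6, Tmem230, Vps72 and Usp7, each with 1 to 7 UMIs in RARα-KO and 19 to 40 in WT, between -4.08 and -1.94. With the mixed cells the Cxcl2 ratio was 3.32, on the other side of 0. Rpl29 (119 against 1068 UMIs, -2.78) and the gene models Gm42031, Gm43305 and Gm4316 (84, 46 and 26 UMIs against 0 in WT) stood apart in this tumor, and Rpl29 did so in Klrg1- cells (-2.73) and CD8 T cells (-2.87) as well. Rpl29 has many processed copies in the genome, so its count is uncertain. Of the remaining high ratios by the rule, all 91 UMIs of Ly6c2, all 49 of Tyrobp and all 18 of Hist1h3b came from 1 cell each, Spp1 had 20 UMIs in 4 cells, and Hspa1a, a heat shock gene, had 124 against 31 (2.38).

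Of the fixed lists, glycolysis and hypoxia genes had 17 of 17 above 0 in RARα-KO members, at a median log2 ratio of 0.26 against -0.02 over all 5645 genes, but 1 of them was past 2-fold. Interferon response genes had 9 of 11 above 0 (median 0.36, 1 past 2-fold). The medians of the 17 identity genes (-0.01) and of the 18 tissue effector genes (-0.03) lay near that of all genes.

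In Klrg1+ regulatory T cells of the RARα-TG tumor Rara was at a higher level than in WT, the type 17 cytokine gene Il17a was detected that was nearly absent in WT, and Gimap4, Gimap7 and most interferon response genes were at a lower level. Of 6347 genes, 278 were 2-fold or more higher (4.38%) and 221 lower (3.48%) than WT, and without mixed cells 243 (3.96%) and 219 (3.57%) of 6143. With the mixed cells the largest ratios above 0 also took in the macrophage genes Lyz2, C1qa, C1qb, C1qc, Arg1 and Pf4. The WT cells are the same as in the RARα-KO comparison.

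Rara was found in 133 of 187 RARα-TG and 34 of 108 WT members. With the mixed cells it had 310 against 51 UMIs, a log2 ratio of 1.86 (1.43 to 2.32), with 1.16 (0.59 to 1.76) in Klrg1- cells, 1.64 in Cd4+ cells without Foxp3 and 1.26 in CD8 T cells. It was thus above WT in every T cell class. The given markers were nearer to WT here than in RARα-KO: Itgae had a log2 ratio of 0.19, Areg of 0.36 and Lrrc32 of -0.75.

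Ramp1, which turns the calcitonin receptor-like receptor into the receptor for the neuropeptide CGRP, had 277 UMIs in 92 RARα-TG members of 62 clonotypes and 9 UMIs in 7 WT members, a log2 ratio of 4.26 (3.32 to 5.41). RARα-KO had 11 UMIs, and the ratio was 2.70 in Klrg1- cells and 3.29 in CD8 T cells. The junction protein gene Jcad had 144 UMIs in 76 cells against 4 (4.49, 3.10 to 6.38). The secreted peptide Tff1 (128 against 6, 3.73), the iron-binding lactoferrin gene Ltf (78 against 3, 3.96 with the mixed cells), the prohormone convertase Pcsk1 (76 against 4, 3.57), Avpi1 (74 against 6, 2.94), Mturn (20 against 1, 3.64) and Pgm2l1 (30 against 2, 3.23) followed. Most of these were spread over cells, with at most 13.3% of the UMIs in 1 cell, except Ltf, of which 1 cell held 32.5%. Cxcl3, a neutrophil chemokine, had 110 UMIs against 1, of which 38.2% were in 1 cell.

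Il17a, the cytokine of type 17 T cells, had 97 UMIs in 20 RARα-TG members of 17 clonotypes, 3 UMIs in 1 WT cell and none in RARα-KO, and 47.4% of the RARα-TG UMIs were in 1 cell. The type 17 homing receptor Ccr6 had 23 UMIs against 3 (2.26), and Ccr1, an inflammatory chemokine receptor, 96 against 9 (2.73). Zeb2, a factor of terminal effector T cells, had 63 UMIs in 45 cells against 8 (2.30), and Pparg, a factor of tissue regulatory T cells, 31 against 4 (2.27). The suppressive cytokine Il10 had 83 against 24 UMIs (1.11). Tnfrsf9, high in RARα-KO too, had a ratio of 0.96.

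Lower in RARα-TG were the lymphocyte GTPases Gimap4 (66 against 227 UMIs, log2 ratio -2.46) and Gimap7 (85 against 274, -2.37). Both genes lie near each other on chromosome 6 (48684578 to 48692062 and 48718621 to 48724636). A Gimap4 UMI was found in 37 of 187 RARα-TG, 79 of 108 WT and 67 of 76 RARα-KO members, and the gene was lower in RARα-TG Klrg1- cells as well (-2.68). Ms4a4b, a membrane protein of T cells, had 23 against 94 UMIs (-2.71, -3.44 to -2.04), and -0.30 in Klrg1- cells. Itih5 (4 against 22, -3.14), Parp12 (3 against 17, -3.19), Myc (5 against 27, -3.12), Gbp10 (6 against 22, -2.56) and Iigp1 (32 against 114, -2.52) completed the low end with Ifitm1 and Ccl4. For these last genes 31 of 32 and 243 of 258 WT UMIs came from 1 cell each.

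Ccr7 and Tbx21 were lower there too. Ccr7 had 80 against 216 UMIs (log2 ratio -2.12) and Tbx21 (T-bet), the factor of type 1 T cells, 20 against 46 (-1.88). Ccr7 was lower than WT in RARα-KO members as well. Of 10 interferon response genes, 0 were above 0 (median -0.87 against -0.02 over all 6143 genes) and 2 were past 2-fold, among them Gbp2 (-1.29). Isg15 had a ratio of -0.87. Of 17 identity genes, 9 lay above 0 (median 0.05), and of 19 tissue effector genes 9 did (median -0.05).

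**Figure D5:**
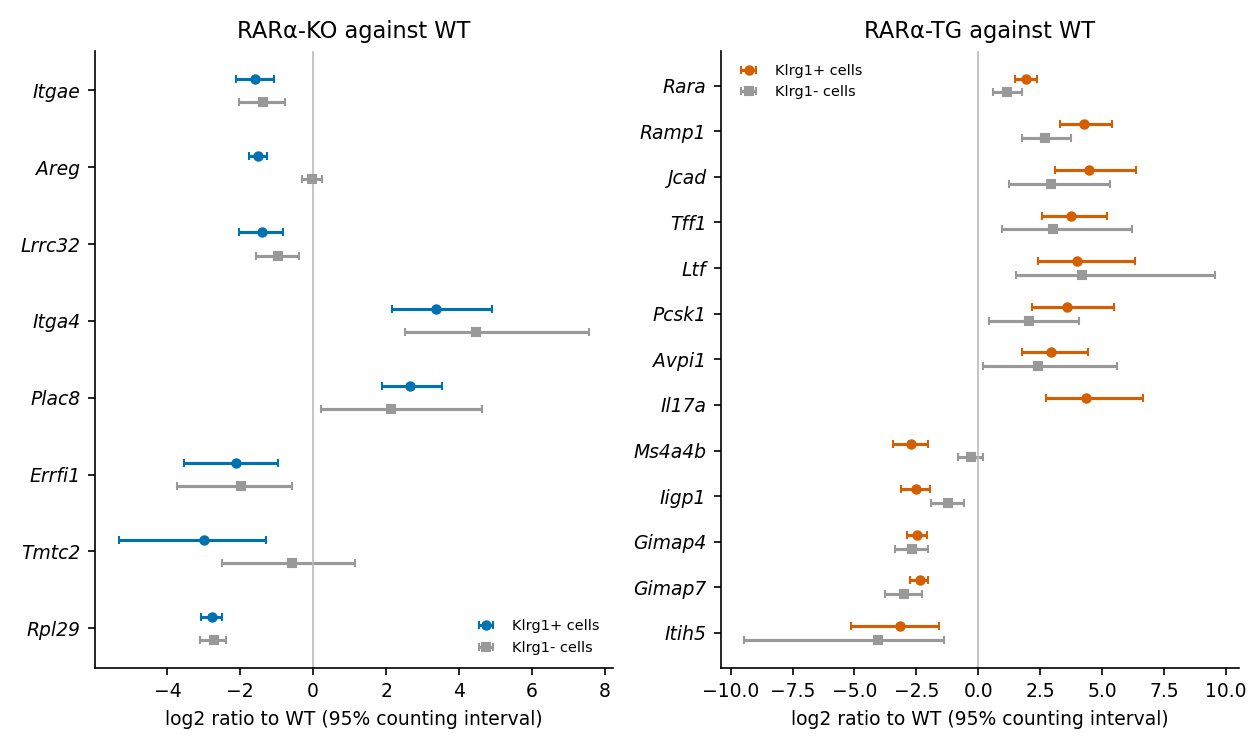
Log2 ratio to WT (x axis) of summed CPM in Klrg1+ cells without mixed cells (circles) and Klrg1- cells (squares) for RARα-KO (left) and RARα-TG (right), with exact 95% counting intervals. Areg in RARα-KO and Ms4a4b in RARα-TG are far from 0 in Klrg1+ and near 0 in Klrg1- cells (for Areg, 1 Klrg1- cell held 105 of 215 UMIs, and the ratio was -0.67 without the top cells), whereas Itgae, Rpl29, Rara and Gimap4 lie on the same side in both gates. No square is drawn for Il17a, which had no WT Klrg1- UMI.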

How the data were processed

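One pooled 10x 5′ library held all 3 genotypes. The authors counted UMIs per gene and antibody tag with Cell Ranger (6.1.0 in the submitters' processing notes, 4 in the matrix header) on mm10, and the deposited matrix holds raw counts for 730308 barcodes and 32285 genes (46394322 gene UMIs). The deposited contig table gives TCR chains with read and UMI counts. Clonotypes were taken from it. The study's own cell filter and clusters were not used here, and doublets were kept in the main values. Tumor labels came from hashtags.

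Cells with 500 or more gene UMIs and a clonotype were gated on raw UMIs. Members, gene lists and tests were chosen with earlier results of these data known. Summed UMIs of 578502, 433955 and 969078 (Klrg1+) and 315561, 261552 and 327529 (Klrg1-) for WT, RARα-KO and RARα-TG were compared by the edgeR 4.0.16 quasi-likelihood test (R 4.3.3) with TMM, filterByExpr and tumor as a block. TCR segments and gate genes were left out. The p-values measure the spread over these 3 tumors. Named genes were the 10 largest changes in each direction with an adjusted p under 0.05 and 1 sign in all tumors, plus list members, and between genotypes the 10 largest log2 ratios past the floors whose exact binomial interval left out 0. For an UMI count of 0 a floor of 3 UMIs gave the ratio. In data simulated for the Klrg1+ against Klrg1- comparison, 53.8% of 184 genes changed 2-fold (of 5306) and 98.9% of 186 changed 4-fold (of 5298) were recovered, with 4 and 5 false calls. The simulated counts were negative binomial with 1 dispersion for all genes, and no UMIs were gathered in single cells as in the real sums. The false calls there therefore do not measure those among the real calls. Thinning, DESeq2 1.42.0, no block, no filter, RLE scaling, stricter gates, tags and quality, likely doublets, and clonotypes counted once were alternatives. The mixed-cell rule, and values without the cell with the most UMIs of a gene, were chosen after seeing the data. Thinning was done after gating, except for the Klrg1+ share. Tables were made with pandas 2.3.3 in Python 3.11.15, intervals with scipy 1.17.1 and figures with matplotlib 3.10.9. Of 126 genes looked up, 124 had RefSeq coordinates.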

Additional observations from a re-analysis of the deposited data

Results flagged for a closer look

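Among the genes named by the ratio rule, differences from WT of opposite sign in the Klrg1+ and Klrg1- gates drew attention to a pair of genes. Both intervals had to leave out 0, and list members such as Irf4 were not screened. Ccl4, a chemokine of activated T cells, had a log2 ratio of RARα-TG to WT of -4.787 in Klrg1+ cells without mixed cells (15 against 258 UMIs, of which 243 in 1 WT cell) and of 1.946 in Klrg1- cells (12 against 3 UMIs). Hspa1a, a heat shock gene, had a log2 ratio of RARα-KO to WT of 2.383 in Klrg1+ cells (124 against 31 UMIs) and of -1.53 in Klrg1- cells (31 against 108 UMIs, of which 104 in 1 WT cell). Without the cell with the most Hspa1a in each tumor and gate both ratios were above 0, at 2.38 and 2.76, so no opposite sign was left. For Ccl4, without the top cells, 8 RARα-TG against 15 WT UMIs remained in Klrg1+ and 3 against 1 in Klrg1- cells. With 1 tumor a genotype these differences between the gates were not tested.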

How the results depend on the processing

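The counts of genes that rose or fell in Klrg1+ against Klrg1- cells (28 and 12) depended on the settings: 9 and 17 without mixed cells, 5 and 6 with 2 or more Foxp3 UMIs, 5 and 0 with 1 or more Cd4 UMIs (189 at an unadjusted p under 0.05), 10 and 8 without likely doublets, 19 and 2 in cells of 3000 or more UMIs, 8 and 3 with cells thinned to 1000 UMIs, 12 and 3 with each clonotype counted once, 66 and 21 with no filter, 0 and 0 with no tumor block (224 at an unadjusted p under 0.05), and 0 and 0 with DESeq2, also without mixed cells. Leaving out 1 tumor gave 8 to 99 and 0 to 97, and without mixed cells 2, 20 and 4 rose and 13, 18 and 1 fell without WT, RARα-KO and RARα-TG. The causes were not tested. Ccl3, which fell without mixed cells, turned to 0.20 without likely doublets and 0.14 with DESeq2. For this gene, 64 of 74 RARα-KO Klrg1- UMIs lay in 1 cell, and WT had 9 UMIs in Klrg1+ and 0 in Klrg1- cells. The Klrg1+ share was 50.9% in WT without likely doublets, a rule that left 108 of 186 Foxp3+ WT cells. It was 29.35%, 32.5% and 40.5% for WT, RARα-KO and RARα-TG after thinning. Genes 2-fold higher or lower in RARα-KO numbered 97 and 150 without likely doublets and 57 and 79 after thinning, and 371 were lower with each clonotype counted once. In RARα-TG they numbered 89 and 115 after thinning, and 347 were lower with each clonotype once. The share of RARα-TG Klrg1+ cells in clonotypes of 2 or more was 58.25% with Cd4. Signs turned for these log2 ratios. RARα-KO to WT with 2 or more Foxp3 UMIs: Ccl3 -2.88, Fos -0.54 and Cxcl2 -1.71, and Cxcl2 -3.27 without likely doublets and -4.08 without mixed cells. RARα-TG to WT: Klf2 -0.30, -0.38 and -0.47 and Fosb -1.46, -0.96 and -0.85 (2 or more Foxp3 UMIs, without likely doublets, without mixed cells), Fos -0.27 without mixed cells and -0.39 thinned, Atf3 -0.57 with 2 or more Foxp3 UMIs, Ifit1 0.19 thinned, Col3a1 0.055 without mixed cells and 2.52 with strict hashtags, Bgn 2.42 with strict hashtags, Rasl11a 1.04 without likely doublets, Spp1 -0.48 with Cd4, and Ifitm1 0.26 with 2 or more Klrg1 and 0.295 with 2 or more Foxp3 UMIs. Of the values of single genes under alternatives, 1482 kept direction and side of the threshold, 249 lost and 42 gained the call, 127 moved and 24 reversed. No paired analysis was possible because the 3 genotypes have 1 tumor each, and the tumor block pairs the gates only.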
